A study of Mus musculus with 2 samples.

Results

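The genes described here encode 9 complement components and receptors: the C1q chains C1qa, C1qb and C1qc, the central components C3 and C4b, the anaphylatoxin receptors C3ar1 and C5ar1, and the chains Itgam and Itgb2 of complement receptor 3. They were taken as the probes that carry one of these gene names on both arrays, which gave 12 probes for the 9 genes, out of 55681 probes and 34797 gene names in all. C3 had 2 probes, Itgam had 3 and each of the other genes had 1, and the accession of all 12 probes matched the same symbol in RefSeq. The study sorted microglia, the macrophages that reside in brain and spinal cord, from the spinal cord of atopic diathesis model mice (titled activated microglia) and of control mice (titled normal microglia). Total RNA of each was amplified, labelled with Cy3 and measured on a 1-colour array, 1 per group, both on 1 slide, so array position and group cannot be told apart. Atopic diathesis denotes a predisposition to allergic disease. How the model was made, and the strain, sex, age and number of mice behind a sample, are not given in the sources used here.

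Complement is a cascade of plasma and tissue proteins that tags targets for uptake by phagocytes. C1q, assembled from its A, B and C chains, starts the classical pathway, which cleaves C4 and then C3; fragments of C3 bound to a surface are recognised by complement receptor 3 (CD11b/CD18), and the small fragments C3a and C5a signal through the receptors encoded by C3ar1 and C5ar1. In the central nervous system microglia are known as the main source of C1q, and complement receptor 3 on microglia is known for its part in the removal of synapses during development.

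Signals below are the background-subtracted intensities of the scanner software, in arbitrary units, and a probe counts as measured where the software marked it well above background on both arrays. This held for 11263 probes, against 15386 (27.6%) well above background on the atopic diathesis array and 13430 (24.1%) on the control array. The lowest signal so marked was 19.9 in atopic diathesis and 19.8 in control, and no spot was saturated. All log2 differences are atopic diathesis minus control, relative to the median difference of the measured probes, which was -0.03 before this centring. Since each group is a single array, differences were not tested and have no replicate check. Spot-to-spot error was taken from probes printed 10 times per array. Over 101 of them the spot-to-spot SD of a log2 difference was 0.20. It was 0.075 for the 18 in the brightest 20% of measured probes and 0.29 for the 40 in the dimmest 40%. Variation among mice, cell sorts and RNA amplifications is not part of it. Signals of different probes are not comparable as levels of their genes. All 10 microglia markers looked up, among them P2ry12 and Tmem119, were measured, with log2 differences between -0.44 and 0.55.

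The sequences of the Itgam probes come first, because they decide how the brightest complement signal can be read. Itgam encodes CD11b, the alpha chain of complement receptor 3, and its probes lie on the plus strand of chromosome 7 (build mm9). The first line gives the opening 30 of the 60 bases of the probe at chr7:135261755-135261814, with its run of alternating C and A in capitals, and the next lines give the whole probes at chr7:135212140-135212199 and chr7:135260275-135260334.
Itgam repeat probe: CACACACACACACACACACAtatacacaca
Itgam upstream probe: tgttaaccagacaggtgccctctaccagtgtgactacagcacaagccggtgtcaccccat
Itgam middle probe: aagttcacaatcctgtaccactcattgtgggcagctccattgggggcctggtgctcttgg
The repeat probe read 82663 in atopic diathesis and 92920 in control, a log2 difference of -0.14. It ranked number 36 by mean signal among the 11263 measured probes. The middle probe, 1480 bases upstream of it, read 9.12 in atopic diathesis and 12.2 in control, and the upstream probe, at a distance of 49615 bases, read 16.9 in atopic diathesis and 9.99 in control. Neither of these was well above background on either array.

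**Figure D1:**
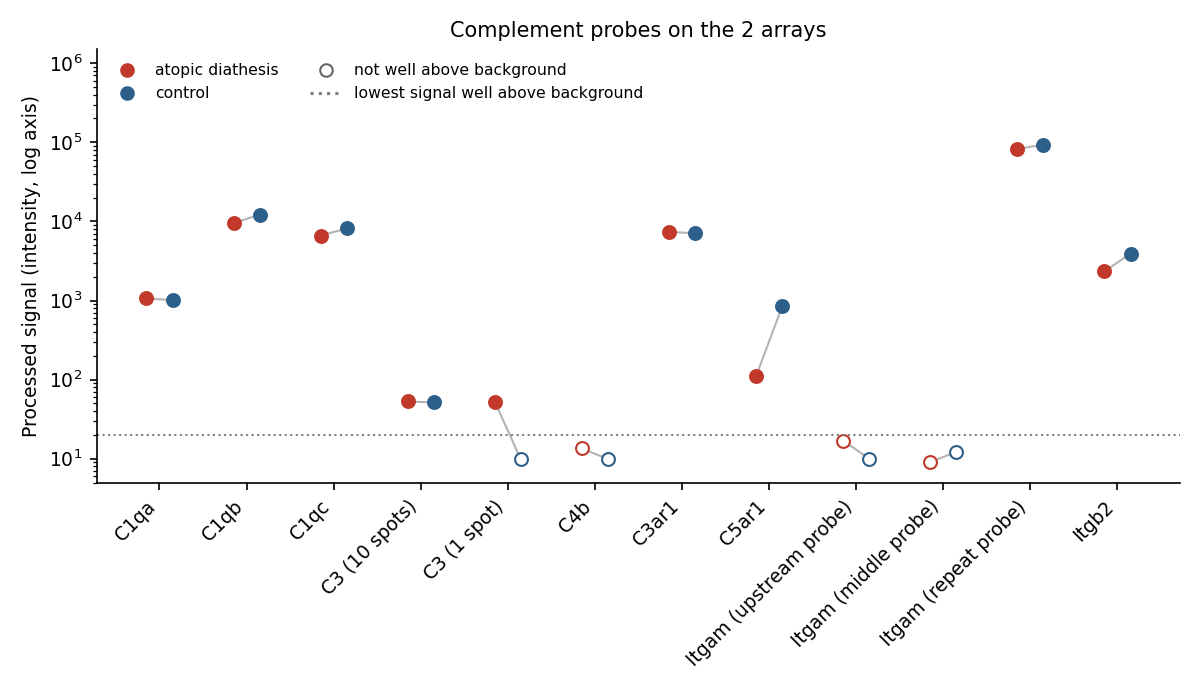
Processed signal (log axis) of the 12 complement probes on the atopic diathesis array (red, left of each pair) and the control array (blue, right). Open circles are not well above background, and the dotted line is the lowest signal well above background on the control array (19.8). C5ar1 and the C3 probe with 1 spot stand apart by their slope, and of the 3 Itgam probes only the repeat probe is bright.

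The repeat probe shared a stretch of at least 20 bases with 23 probes of other names, whereas none of the other 11 complement probes shared 20 bases with a probe of another name. Across the array, searched on the probe's own strand, 35 probes (0.063%) held a run of 16 or more alternating C and A, and they carried 35 different gene names. All 35 were well above background on both arrays, with medians of 82663 in atopic diathesis and 89582 in control, whereas the 55387 probes with a run under 8 bases had medians of 7.85 in atopic diathesis and 5.34 in control. The log2 differences of the 35 lay between -0.30 and 0.26. Signal went up with run length. The 232 probes with a run of 8 to 11 bases had medians of 42.7 in atopic diathesis and 27.2 in control, and 50.4% of them were measured. The C3ar1 probe, with a run of 8 bases, is among them. The 27 probes with a run of 12 to 15 bases had medians of 3617 in atopic diathesis and 3673 in control. The 24 with a run of 20 or more, the Itgam probe among them, had 91588 in atopic diathesis and 93221 in control. Of the 29 probes at least as bright as the Itgam repeat probe on both arrays, itself included, 22 held a run of at least 12 bases of alternating C and A or of alternating T and G. The Snap25 probe, named for a synaptic protein of neurons and on the neuron marker list, also holds a run of 20 bases and read 84015 in atopic diathesis and 82155 in control, while the other 7 neuron markers were undetected on both. On these arrays Itgam transcript and repeat sequence from other genes cannot be told apart in the signal of the repeat probe, so summaries are also given without Itgam.

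**Figure D2:**
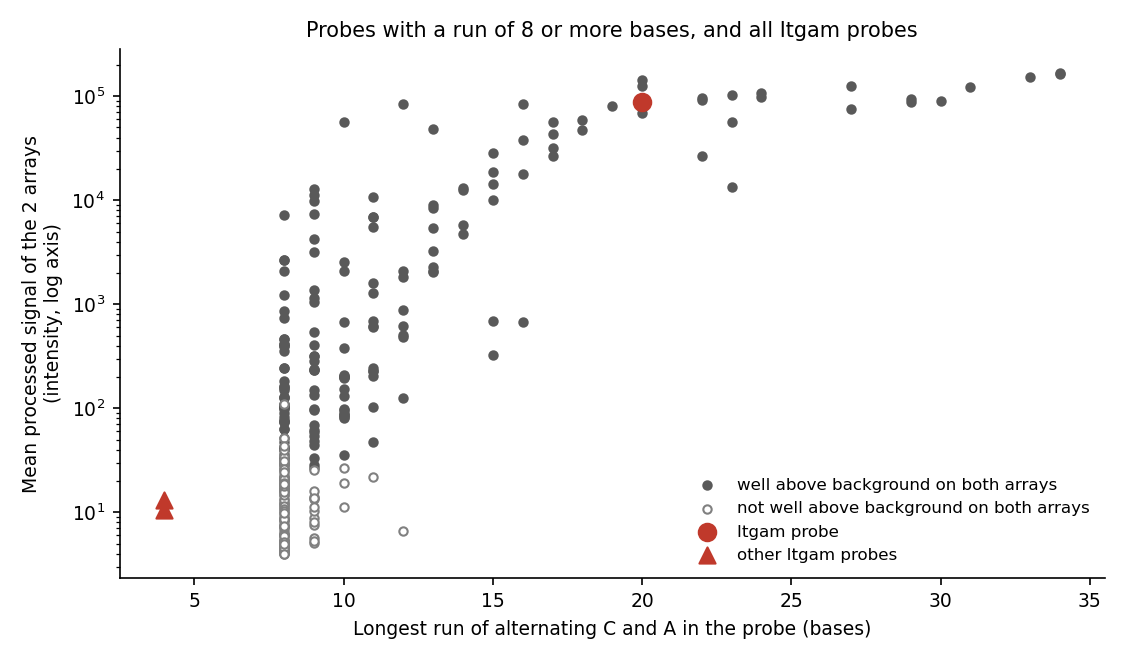
Mean processed signal of both arrays (log axis) against the longest run of alternating C and A in the probe, in bases, for all probes with a run of 8 or more and for the 3 Itgam probes. The Itgam repeat probe (red circle) lies among the other probes with runs of 20 or more bases, and the other Itgam probes (red triangles, runs of 4 bases) lie near background.

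The C1q chains were well above background on both arrays, and each differed by less than 2-fold. Their probes lie within 15891 bases on the minus strand of chromosome 4, C1qb at chr4:136436578-136436637, C1qc at chr4:136445766-136445825 and C1qa at chr4:136452409-136452468 (mm9), and no 2 of them share a stretch longer than 6 bases. The sequences are shown because the chains are read by unrelated probes; for C1qc the opening 30 of 60 bases are given.
C1qa probe: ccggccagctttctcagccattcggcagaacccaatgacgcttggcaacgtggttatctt
C1qb probe: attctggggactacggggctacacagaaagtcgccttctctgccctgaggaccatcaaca
C1qc probe: tctgggaaccacctaatggtattattcctg
C1qa, which encodes the A chain, read 1065 in atopic diathesis and 1008 in control (log2 difference 0.11). C1qb, for the B chain, read 9477 in atopic diathesis and 12198 in control (-0.33), 1.26-fold lower. C1qc, for the C chain, read 6630 in atopic diathesis and 8138 in control (-0.27). C1qb and C1qc thus lay below control and C1qa slightly above it.

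C1qc was printed 10 times per array, of which 9 spots were usable on each. The spots ranged from 6292 to 7035 with a median of 6648 in atopic diathesis, and from 7730 to 8386 with a median of 8137 in control. The ranges did not overlap, and the spot error of the C1qc difference was 0.02 (SE, spots only), so the signals differed by more than the scatter between spots. Against other genes the differences were ordinary: 59.7% of the measured probes in the brightest 20% lay at least as far from 0 as C1qc, 52.3% as C1qb and 79.8% as C1qa. Set against each other within the arrays, which no scaling by a constant changes, the log2 difference of C1qb minus that of C1qa was -0.44. That of C1qc minus C1qa was -0.37. The pooled spot scatter of bright probes printed 10 times gave each a 95% half-width of 0.21, with every probe taken as 1 spot. C1qc is a mean of 9 usable spots per array, so for C1qc minus C1qa that width is wider than spot scatter alone gives. C1qa and C1qb have 1 spot each, so their own scatter was not measured. The signal error that the scanner software gives for these single spots is larger than that pooled scatter. Whether the chains differ from each other beyond measurement error was therefore not tested. C1qb minus C1qc was -0.07. The sign for C1qa itself turned with the scaling by the 75th percentile of all probes, which moved the median measured probe to -0.50 and gave C1qa -0.39. C1qb and C1qc were negative under all 12 alternatives.

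**Figure D3:**
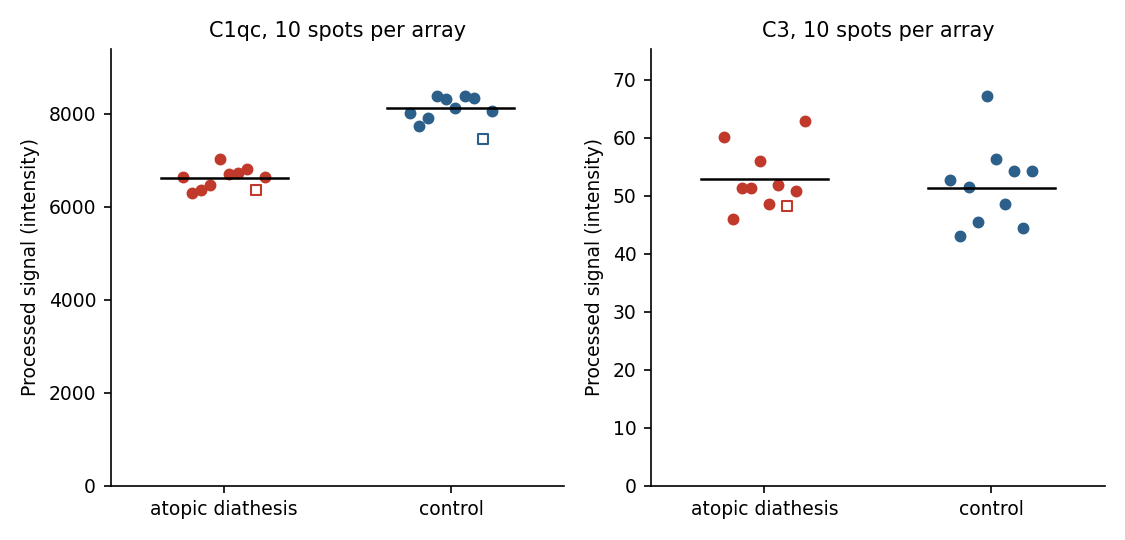
Processed signal of each of the 10 printed spots of the C1qc probe and of the 10-spot C3 probe, on the atopic diathesis array (red) and the control array (blue). Lines are geometric means of the usable spots and open squares are spots marked as outliers. The C1qc spots of the arrays do not overlap, and those of C3 do.

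C3, the component on which all pathways meet, was dim, and its probes disagreed. Both lie on the minus strand of chromosome 17 (mm9), 262 bases apart, at chr17:57343416-57343475 and chr17:57343678-57343737. They are shown, the probe with 10 spots by its opening 30 bases, because the reading of C3 depends on which is used.
C3 probe with 10 spots: attcacagaatctatggtggtttatggttg
C3 probe with 1 spot: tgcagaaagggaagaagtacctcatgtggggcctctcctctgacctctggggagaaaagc
The probe with 10 spots had geometric means of 53.0 in atopic diathesis (9 usable spots) and 51.4 in control (10 usable spots), a log2 difference of 0.07 with an SE of 0.08 between spots. Its spots ranged from 45.9 to 62.9 in atopic diathesis and from 43.1 to 67.2 in control, so the spots of the arrays overlapped. The sign was not stable: C3 came to -0.37 with quantile normalization and to -0.42 with the 75th percentile of all probes. The probe with 1 spot read 52.6 in atopic diathesis and 9.78 in control, where it was not well above background. That gave a bound of at least 2.72-fold higher in atopic diathesis, taken against the lowest control signal well above background. Before background subtraction the same spot read 143 in atopic diathesis and 91.5 in control, a raw ratio of 1.56. Of all probes 7.4% (4122) were, like this one, well above background in atopic diathesis only, and of those 59.8% had a bound of at least 2-fold.

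C4b, the classical pathway component cleaved by the C1 complex, stayed below the detection limit of both arrays, at 13.5 in atopic diathesis and 9.89 in control (chr17:34865328-34865387, minus strand, mm9). Its close relative C4a, whose transcript is nearly identical, had no probe of that name, and whether the C4b probe also reads C4a was not tested. No fold is given for C4b.

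The anaphylatoxin receptors differed from each other. C3ar1, the receptor for C3a, read 7362 in atopic diathesis and 7080 in control, a log2 difference of 0.09 (chr6:122798222-122798281, minus strand), which was -0.41 with the 75th percentile of all probes. C5ar1, the receptor for C5a, read 110 in atopic diathesis and 840 in control, a log2 difference of -2.90, or 7.45-fold lower. Among the 8 members measured on both arrays, C5ar1 was the sole one past 2-fold with centring on the median measured probe; the C3 bound above is not among these. It rests on 1 spot of 1 probe (chr7:16832243-16832302, minus strand), whose opening 30 bases are given because the result turns on it.
C5ar1 probe: gtacagatcaacaccagaagtatcatgcaa
Its dimmer reading, in atopic diathesis, stood at 5.55 times the detection limit given above for that array, so the value is not a bound. The difference was far larger than the spot error of middle-range probes, whose 95% half-width was 0.26. Before background subtraction the spot read 210 in atopic diathesis and 1041 in control, a raw ratio of 0.20. Of all measured probes 16.3% were at least 2-fold lower. A difference as low as that of C5ar1 was reached by 253 measured probes (2.25%), and by 3.02% of the 2252 probes in its class of signal, the 20% next below the brightest 20%. C5ar1 lay between -3.39 and -2.32 under the 12 alternatives. In these sorted cells fewer cells that express C5ar1 and less C5ar1 RNA per cell cannot be told apart. Neutrophils and blood monocytes also carry this receptor: among 9 neutrophil markers the sole one above background was Csf3r, at 19649 in atopic diathesis and 19916 in control, by a probe that shares at least 20 bases with 2 probes of other names. All 7 monocyte and border macrophage markers with a probe were undetected on both arrays, with summed signals of 35.3 in atopic diathesis and 34.9 in control. Sums of undetected readings cannot compare the arrays.

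C5ar2, the other receptor for C5a, is named Gpr77 on the array and lies next to C5ar1, with 12142 bases between the nearest probes. Its probes read 3829 and 4405 in atopic diathesis, against 3111 and 3110 in control, with log2 differences of 0.33 and 0.53. They overlap by 44 bases and are no separate readings. Their mean of 0.43 stood 3.33 log2 units above C5ar1, and C3ar1 stood 2.98 above it, distances that no scaling by a constant changes. They do depend on background correction. Without it C5ar2 read 0.40, C3ar1 0.12 and C5ar1 -2.32, so both distances were smaller. C5ar1 and the neighbouring C5a receptor gene thus lay on opposite sides of the median probe, though C5ar2 read -0.07 with the 75th percentile of all probes.

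Itgb2 encodes CD18, the beta chain shared by complement receptors 3 and 4 and by other leukocyte integrins. It read 2342 in atopic diathesis and 3905 in control, a log2 difference of -0.71 (1.63-fold lower), at chr10:77027978-77028037 on the plus strand. This was beyond the 95% half-width of 0.15 from the pooled scatter of bright spots, and within 2-fold. Itgb2 rests on 1 spot, so its own scatter was not measured. The scanner software gives that spot a larger error, 234 in atopic diathesis and 391 in control. Among the brightest 20% of measured probes, 24.2% lay at least as far from 0. Itgb2 passed 2-fold under 1 of 12 alternatives, the 75th percentile of all probes.

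**Figure D4:**
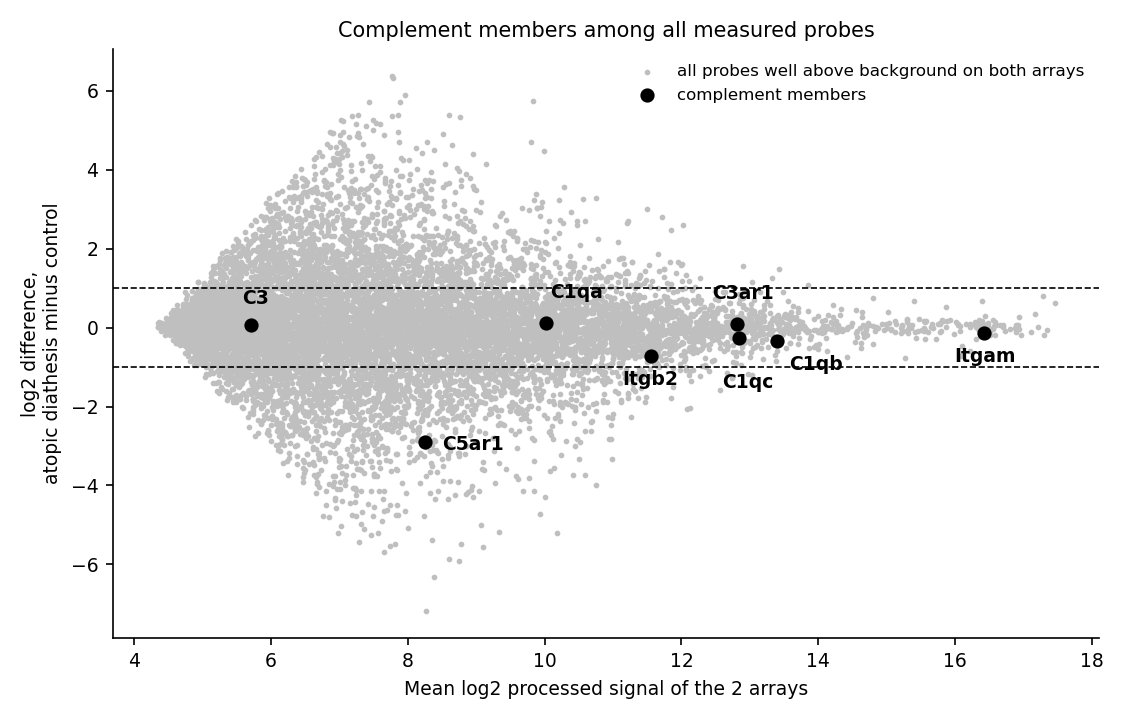
Log2 difference, atopic diathesis minus control, against the mean log2 processed signal of both arrays, for all 11263 measured probes (grey) and the 8 measured complement members (black). Dashed lines mark 2-fold. The brighter members lie between the dashed lines, Itgb2 lowest among them at -0.71, and C5ar1 at -2.90 lies below the lower line.

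Counted together, 8 of the 9 members were measured, each through 1 probe. None was at least 2-fold higher, where 17.6% of all measured probes were, and 1 was at least 2-fold lower, where 16.3% were. In the brightest 20%, which holds 6 of the 8, the share was 6.57% for higher and 8.66% for lower. The median log2 difference of the measured members was -0.20, and -0.27 without Itgam, against 0 for all measured probes by construction and -0.03 for the brightest 20%, whose 5th and 95th percentiles were -1.31 and 1.19. Of the measured members 3 lay above the median probe and 5 below. Read against these shares, the single call is no result about the members as a set.

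Of 45 other complement genes looked up, 44 had a probe, with 61 probes in all, and 8 were measured. Of all probes on the array 20.2% were measured, a share of probes and not of genes. Of the other genes with a probe, 34 were undetected on both arrays and 2 were detected on 1 array only. Most probes of the whole array were undetected too: 27.6% were well above background in atopic diathesis and 24.1% in control. Well above background in atopic diathesis only were 7.4%. The undetected genes listed next are therefore no result about their pathways. Not detected were all 4 classical pathway genes with a probe (C1ra, C1rb, C1s and C2), all 8 of the lectin pathway and all 7 terminal components. In the alternative pathway Cfp, which encodes properdin, a stabiliser of the C3 convertase, was above background in control only, at 18.6 in atopic diathesis and 28.4 in control, a bound of at least 1.40-fold lower, though the raw ratio before background subtraction was 0.96. Cfb and Cfd, the alternative pathway proteases, were not detected. Itgad, an alpha partner of CD18, was above background in atopic diathesis only, at 27.8, against 7.03 in control, a bound of at least 1.43-fold higher, with a raw ratio of 1.22.

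Of the 8 measured, 1 exceeded control by 2-fold or more, 1 was below it by as much, and 6 were within 2-fold. Set beside the 17.6% higher and 16.3% lower among all measured probes, 1 of 8 in each direction is near the background and no result about these genes as a set. Clu, for clusterin, a soluble regulator that inhibits the terminal complex, read 127 in atopic diathesis and 34.1 in control, a log2 difference of 1.93 (chr14:66600325-66600382, plus strand). Its control signal was 1.72 times the lowest well above background, and before background subtraction it read 225 in atopic diathesis and 118 in control. With those uncorrected signals the log2 difference was 0.92. Clusterin is also made by astrocytes. Of 7 astrocyte markers 3 were measured, with log2 differences between -0.61 and -0.02, and the summed signal of the list was 1359 in atopic diathesis and 1335 in control. Gja1 was above background in atopic diathesis only, at 241, against 10.4 in control. The summed signal of 7 oligodendrocyte markers was 1250 in atopic diathesis and 897 in control. Of these, 3 were measured, with log2 differences between -0.18 and 1.70 and 1 of them past 2-fold higher, and 3 more were above background on 1 array only or on different arrays by different probes. The summed signal of 5 endothelial markers was 267 in atopic diathesis and 598 in control. Among these 5 only Ly6c1 was measured, with a log2 difference of -1.03. Another 2 were undetected on both arrays, and 2 were above background on 1 array only or on different arrays by different probes. The part of these cells in the Clu difference was not tested.

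Among measured binding proteins, C1qbp, a mitochondrial protein that binds the globular heads of C1q, read 46.4 in atopic diathesis and 146 in control (-1.63, 3.09-fold lower), but -0.85 with uncorrected signals. Calr, for calreticulin, which also binds C1q, read 16541 in atopic diathesis and 17232 in control (-0.03).

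**Figure D5:**
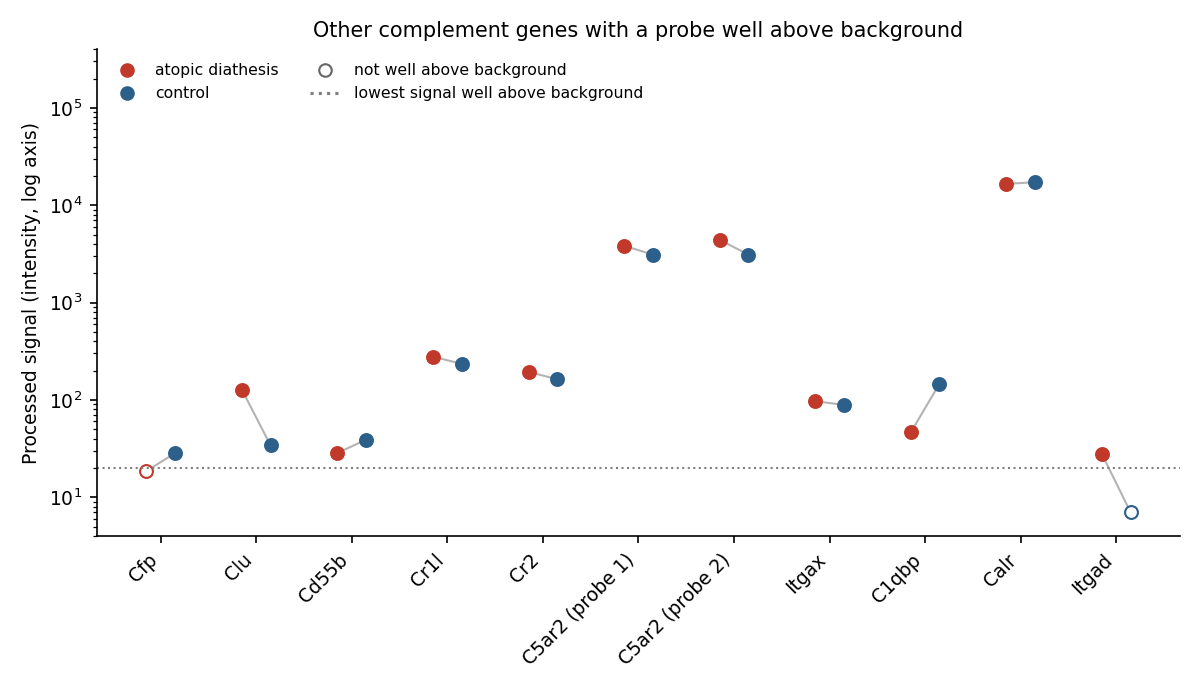
Processed signal (log axis) of every probe of the other complement genes that was well above background on at least 1 array, atopic diathesis in red (left) and control in blue (right). Open circles are not well above background, and the dotted line is the lowest signal well above background on the control array. Clu is higher and C1qbp lower in atopic diathesis, and both C5ar2 probes are slightly higher.

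Of 8 membrane regulators, 6 (Cd46, Cd55, Cd59a, Cd59b, Csmd1 and Susd4) were undetected on both arrays, as were the receptor genes Vsig4 and Cd93. The measured membrane regulators and the receptors Cr2 and Itgax were within 2-fold. Cr1l, the rodent regulator also called Crry, read 278 in atopic diathesis and 235 in control (log2 difference 0.27). Cd55b, a decay-accelerating factor, read 28.5 in atopic diathesis and 39.1 in control (-0.43) on 1 of its 2 probes, near background on both arrays. Before background subtraction that probe read 118 in atopic diathesis and 119 in control, and the difference was -0.03 with uncorrected signals and -0.90 with quantile normalization. Cr2, for complement receptor 2, read 194 in atopic diathesis and 163 in control (0.28) on 1 of its 2 probes. Itgax, the alpha chain of complement receptor 4, read 97.0 in atopic diathesis and 88.9 in control (0.16). With the 75th percentile of all probes Cr1l, Cr2 and Itgax turned negative, at -0.22, -0.21 and -0.34. Itgax was also negative with quantile normalization and in the deposited series table (-0.17 in each). The median over the 8 measured genes was 0.22.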

How the data were processed

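Each sample is 1 Agilent 1-colour array with 1 file of spot intensities. Per the file headers the authors' scanner software was Feature Extraction 10.7.1.1 (the version in the submitters' processing notes is 9.5.1.1), and it subtracted background and detrended the processed signal. The deposited series table holds intensities whose sorted values were equal within 0.01 log2 units between the columns for 100% of ranks, with a median of 6.64 each; no source used here describes the step behind this, and the table served as an alternative. The flags for background and outliers are those of the deposited scanner files. Control spots (3671) and outlier spots (122 in atopic diathesis, 136 in control) were left out, spots of a probe were averaged as log2 intensity, and a gene's value is the mean over its measured probes. Differences were centred on the median measured probe, because the 75th percentile of all probes fell among dim probes (28.6 in atopic diathesis and 20.7 in control). A probe above background on 1 array has a bound, in which the dim reading is replaced by the lowest well-above-background signal of its array, or kept if it is higher. No test was made, since there is 1 array per group, and the number of arrays limits the precision. Calculations used Python 3.11.15 and, for normexp (offset 50) and quantile normalization, limma 3.58.1; loess had a span of 0.4. The calculation was run on simulated arrays drawn from the control probes, with known differences put into a small share of them. Real differences were spread more widely, so this checks the code and not the results. The members and gene lists were chosen with earlier results of these data known. All members were named with every probe, and of the other complement genes all that were measured; the 2 with a bound under 2-fold were added after their values were seen. Of the list of other complement genes 1 is not reported here, for reasons unrelated to its values, and was left out of the list and its counts. RefSeq of GRCm38.p6 was used for names only, and probe positions are those of the files on mm9; exon annotation of that build was not used here.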

Additional observations from a re-analysis of the deposited data

How the results depend on the processing

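The C5ar1 difference stayed negative and past 2-fold under all 12 alternatives, between -3.39 and -2.32. The count of members at least 2-fold higher was 0, but 1 (C3) when detection on a single array sufficed and with no background filter, where 32.1% and 18.4% of all probes used were higher. The count at least 2-fold lower was 1, but 2 with the 75th percentile of all probes, where Itgb2 joined C5ar1 and 28.1% of all were lower. The members' median of -0.20 was -0.70 with that percentile and 0.087 with no background filter. Scaling by that percentile moved the median of all measured probes by -0.50, and with it C1qa, C3 and C3ar1 turned negative; quantile normalization moved that median by -0.16 and also gave C3 -0.37. Of the other complement genes, 1 was at least 2-fold higher, but 0 without background correction, 2 when detection on a single array sufficed and 7 with no background filter, to be read against the same 32.1% and 18.4%; 1 was at least 2-fold lower, but 0 under normexp or without background correction. The cause of these shifts was not tested beyond the construction of each alternative. With 1 array per group no replicate could be left out. No paired analysis was possible because each group has 1 sample. Signal over background limits the readings of C3, C4b, Clu, Cd55b and C1qbp.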
